A study of Homo sapiens with 2 samples.

Results

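The galectin genes LGALS1, LGALS3, LGALS8 and LGALS9, together with LGALS3BP, the gene of a glycoprotein that binds galectin-3, were examined on arrays from HEK293T cells expressing IRX1::GFP or GFP alone. The members are 5 of 19775 genes named on the array, and they were chosen by symbol, taking every probe set whose annotation gives exactly 1 of these symbols. This gave 11 probe sets, groups of short probes that together measure 1 part of a transcript. The choice of this family followed from the large value of LGALS1 on these same arrays, so the values of LGALS1 are a description and support nothing further.

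HEK293T is an established line of human embryonic kidney cells. The cells received the vector pcDNA3.1-GFP (GFP control) or pcDNA3.1-IRX1::GFP by transient transfection with polyethylenimine, a cationic polymer whose DNA complexes are taken up through endosomes. RNA was taken 48 h later from cells sorted for GFP, so that both groups share the transfection, the polymer, the sort and a GFP sequence, and differ in IRX1, a homeobox transcription factor that is highly overexpressed in this transient setting. For each condition 1 array was analysed here, so no replicate, no error between cultures and no p-value can be given. The number of arrays sets the precision of all values. Fewer cells with a transcript and less of it per cell cannot be told apart in such bulk RNA.

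Galectins are small lectins that bind beta-galactosides, the galactose-containing ends of glycans on proteins and lipids. They are made in the cytosol, leave the cell without a signal peptide, and cross-link glycoproteins at the cell surface and in the matrix. Inside the cell, galectin-3, galectin-8 and galectin-9 gather on endosomes and lysosomes whose membrane has broken and whose glycans then face the cytosol. LGALS3BP is not a lectin but a secreted, heavily glycosylated ligand of galectins.

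Values are the deposited MAS5 signals, linear intensities already scaled array by array. The mean signal without the lowest and highest 2% was 1000 on both arrays, and the median was 171 in GFP control cells and 195 in IRX1::GFP cells. Background was set by 135 probe sets of olfactory receptor genes, which are rarely used outside the nose. Their 90th percentile was 148 in GFP control cells and 195 in IRX1::GFP cells. The log2 ratio (IRX1::GFP / GFP control) is positive where the signal was higher with IRX1::GFP. No ratio or fold is given for a gene when both signals were at or under background, and a fold with 1 such signal is a lower bound against that level. Each gene stands by its brightest probe set, judged by the mean signal, and counts as higher or lower from 2-fold on. Of the markers set for HEK293T, 5 of 6 (NEFM, NEFL, VIM, KRT8 and KRT18) were above background on both arrays, while PAX2 read 134 and 278. The only probe set named for IRX1 read 33.1 and 57.0, neither above background, and does not check the labels, since it may lie outside the transfected cDNA.

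LGALS1 stood far above its control value, and the rest of the family did not. Of the 5 genes, 3 passed the filter on dim probe sets, a mean signal of 183, and 1 of these, LGALS1, was at least 2-fold higher with IRX1::GFP. The other 2, LGALS3 and LGALS3BP, were within 2-fold. No member was at least 2-fold lower. Among all 12193 genes past this filter, 10.4% were higher and 5.34% lower by 2-fold or more. The log2 ratios were 0.08 for LGALS3, 0.71 for LGALS3BP and 4.71 for LGALS1. The median of all genes past the filter was 0.07. No median of the 3 genes is read, since LGALS1 led to the choice of the family. LGALS8 and LGALS9 did not pass, and no signal of either exceeded background.

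**Figure D1:**
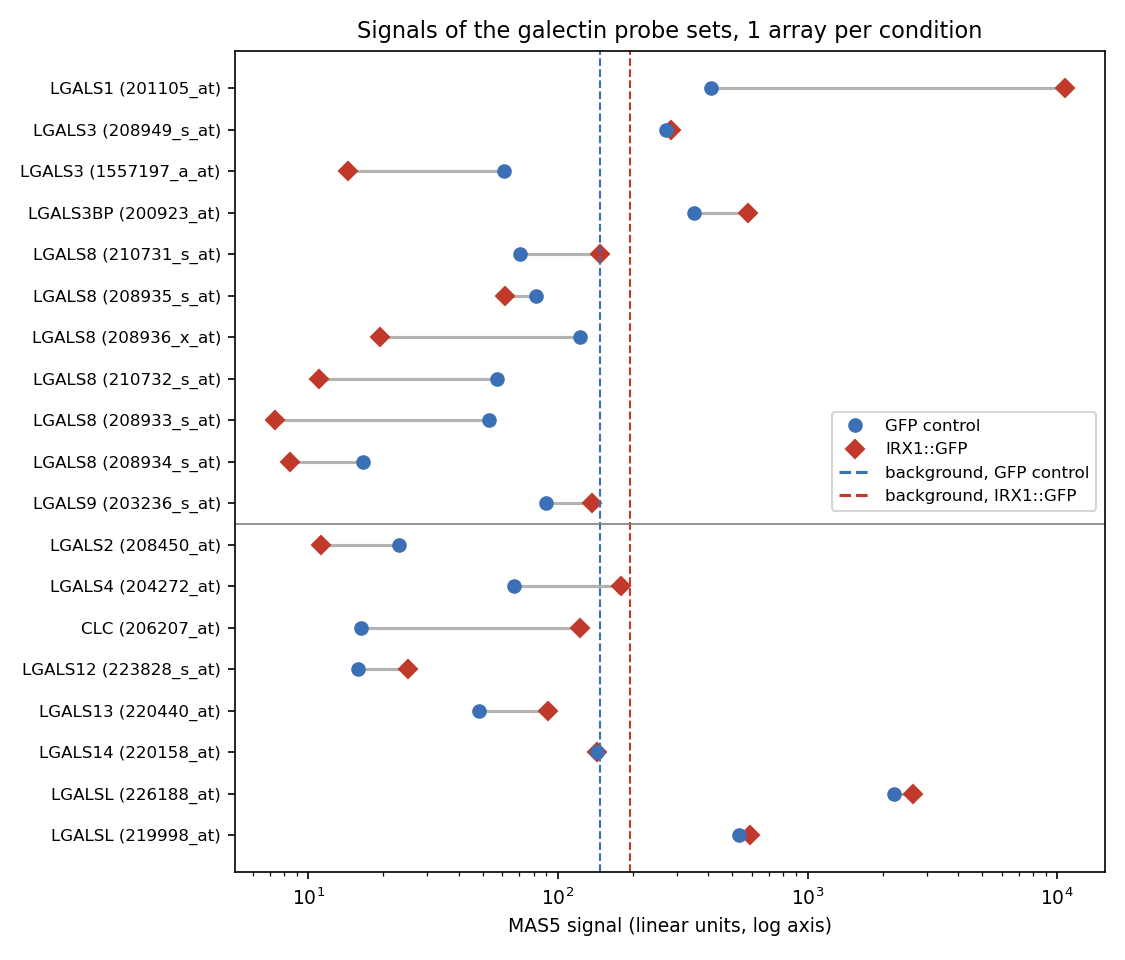
MAS5 signals (x, linear units on a log axis) of each galectin probe set (y) in GFP control cells (blue circles) and IRX1::GFP cells (red diamonds), 1 array per condition, with dashed lines at the olfactory receptor background of each array, 148 and 195. The members stand above the grey line and other galectins below it. LGALS1 spans 410 to 10765, while the 6 probe sets of LGALS8 and the 1 of LGALS9 lie to the left of the lines.

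LGALS1 encodes galectin-1, a lectin with a single carbohydrate-binding domain that pairs into dimers. Its only probe set read 410 in GFP control cells and 10765 in IRX1::GFP cells. Both signals exceeded background, and the gene was 26.2-fold higher, a log2 ratio of 4.71, whereas 4-fold was reached by 1.59% of all genes past the filter. On the GFP control array 131 of 135 olfactory receptor probe sets lay below it, and with IRX1::GFP all 135 did. LGALS1 was thus measurable in both conditions. By log2 ratio it ranked 12 among 12193 genes, and 10 of the 11 genes ahead of it were under background in the GFP control. Among the 11540 genes with both signals above background it ranked 2. No second probe set with this symbol was analysed here that could check the value. The scatter among probe sets that share a gene, past the filter, had an SD of 0.49 (log2, 5930 genes), and says nothing of differences between cultures.

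Genes that started from a like signal are set beside LGALS1 as a description only, since LGALS1 was chosen for its large value. The GFP control signal of 3639 genes past the filter lay within 2-fold of that of LGALS1, between 205 and 820, and their median log2 ratio was 0.22. Of these, 510 (14.0%) were at least 2-fold higher, 47 (1.29%) at least 4-fold, 5 at least 8-fold and 1, LGALS1 itself, at least 16-fold. The next largest log2 ratio in this range was 3.75, that of EGR3, a zinc finger transcription factor.

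The genes whose log2 ratio came closest to that of LGALS1, with both signals above background, were HSPB1, SERPINH1 and EGR3. HSPB1, a small heat shock protein, had a log2 ratio of 4.39, a difference of -0.32 from LGALS1, with signals of 1442 and 30242. SERPINH1, a chaperone for collagen, had a log2 ratio of 3.81, with signals of 1892 and 26578. EGR3 read 281 and 3781. This likeness rests on 1 ratio of 2 arrays for each gene and on 1 probe set past the filter for each of the 3.

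**Figure D2:**
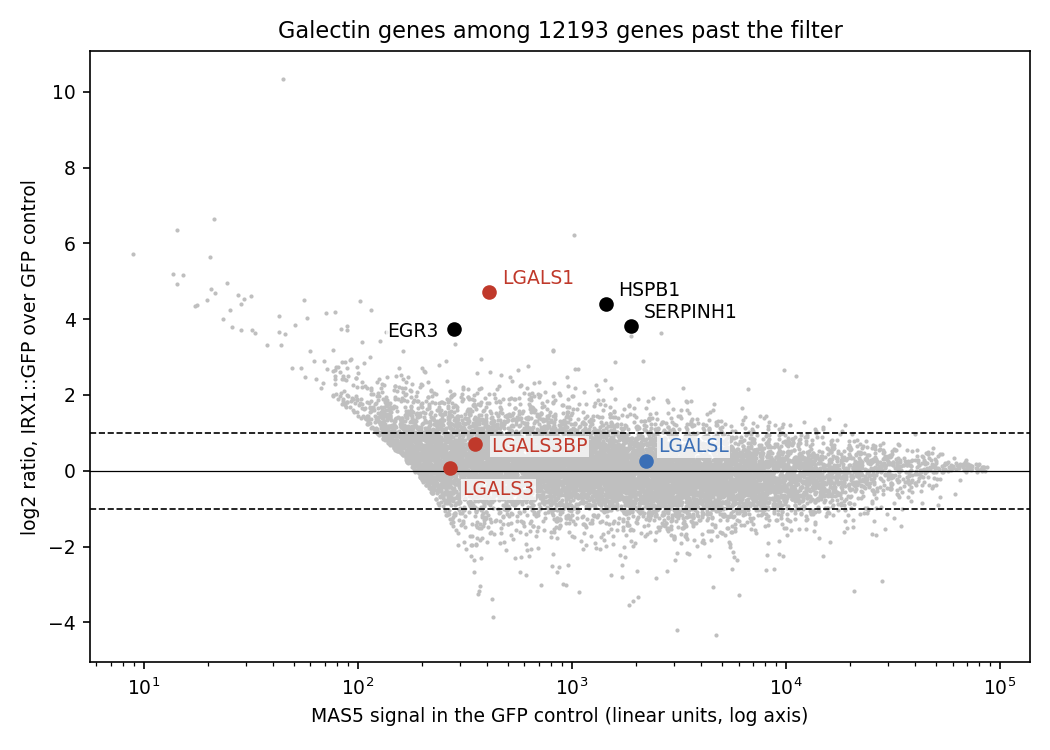
Each grey point is 1 of 12193 genes past the filter, with its MAS5 signal in the GFP control (x, linear units on a log axis) and its log2 ratio (IRX1::GFP / GFP control) (y), dashed lines marking 2-fold. LGALS1 at 4.71 lies near HSPB1, SERPINH1 and EGR3 (black) and far above LGALS3 at 0.08, LGALS3BP at 0.71 and LGALSL (blue) at 0.26.

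Other measures differed between the 2 arrays too. For ACTB the 3-prime control probe set was 3.23 times as bright as the 5-prime one in the GFP control and 1.64 times with IRX1::GFP, a measure of RNA integrity, and for GAPDH 1.22 and 1.01 times. The 6 control probe sets of both genes had log2 ratios of 0.21 to 1.24, all higher with IRX1::GFP. Of 3 fibroblast markers, a cell type in which LGALS1 is abundant, COL1A1 read 631 and 2571, DCN 184 and 117, and COL3A1 76.2 and 27.5. The summed fibroblast signal was 891 and 2715, while DCN and COL3A1 were not above background with IRX1::GFP. The sum over 4 leukocyte markers was 1486 and 2071. PTPRC, the common leukocyte antigen, read 76.9 and 71.4, under background on both arrays, and CD3E, a T cell marker, 244 and 168, above it in the GFP control only. The myeloid markers CD14, at 327 and 856, and ITGAM, at 838 and 976, were above background on both arrays. Summed hepatocyte markers read 327 and 496, and endothelial markers 259 and 262. Markers of HEK293T differed as well, with NEFL at 3205 and 8765, KRT18 at 2046 and 4480, NEFM at 4292 and 8206 and KRT8 at 729 and 1044. VIM was lower, at 38213 and 28168. The part of RNA quality or of other cells in the values of LGALS1 and of all other genes was not tested.

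Promoter sequences were looked up in RefSeq (GRCh38.p14), where LGALS3, LGALS3BP, LGALS8 and LGALS9 matched with 6 entries and LGALS1 was not matched. Each entry runs from 250 bases before a start of transcription to 50 after it. They were searched on both strands for letters tied to transcription factors. The letters ACANNTGT, bound by Iroquois proteins such as IRX1, were in none of the 6 entries, beside 5.62% of all 35116 promoters. The heat shock element core GAANNTTC was also in none, beside 6.77% of all promoters. The letters of the interferon response element were found in the entries of LGALS3BP and LGALS9, beside 3.57% of all promoters. The GC box GGGCGG occurred 3 times in LGALS3 and 1 time in 1 of 3 LGALS8 entries, beside 45.0% of all promoters that hold it. The letters TATAAA of the TATA box occurred 2 times in another LGALS8 entry, each time on the strand opposite to the gene, beside 11.5% of all promoters. A match is a description of letters and not a site that was measured, and no match says only that the letters are not in this window. The 110 bases around the start, 100 before and 10 after, are shown for LGALS3BP and LGALS9, which share the interferon response letters, and for LGALS3, the other member with a matched promoter and a signal above background, with the matched letters in capitals.
LGALS3BP, chr17:78979914-78980023, minus strand: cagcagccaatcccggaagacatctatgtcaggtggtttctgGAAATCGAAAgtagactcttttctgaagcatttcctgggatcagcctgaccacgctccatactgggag
LGALS9, chr17:27631088-27631197, plus strand: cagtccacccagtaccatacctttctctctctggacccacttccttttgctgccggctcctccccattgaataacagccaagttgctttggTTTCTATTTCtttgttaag
LGALS3, chr14:55129152-55129261, plus strand: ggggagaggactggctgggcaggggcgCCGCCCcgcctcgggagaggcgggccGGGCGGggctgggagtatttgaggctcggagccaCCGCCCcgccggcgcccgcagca
In LGALS9 and in the outer matches of LGALS3 the letters lie on the opposite strand. Beside these letters, LGALS3BP read 351 and 575 and LGALS9 stayed under background on both arrays.

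LGALS3 encodes galectin-3, the member with a long proline- and glycine-rich tail before its carbohydrate-binding domain, through which it forms oligomers. Its brighter probe set read 270 in the GFP control. With IRX1::GFP it read 284, a log2 ratio of 0.08. Both signals exceeded background, and the difference was smaller than this scatter of 0.49 among probe sets. About 50.2% of the genes past the filter had a smaller log2 ratio, so LGALS3 sat in the middle of all genes. The sign of this ratio turned with the scaling between arrays, to -0.03 after median centring, -0.10 after quantile normalization and -0.07 after loess. The second LGALS3 probe set read 61.1 and 14.5, not above background in either condition.

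LGALS3BP, the secreted galectin ligand, read 351 in GFP control cells and 575 in IRX1::GFP cells. It was 1.64-fold higher, a log2 ratio of 0.71, within the 2-fold limit. This ratio exceeded this scatter of 0.49 among probe sets, which leaves out differences between cultures, so no change is inferred from it. Of the genes past the filter, 82.0% had a smaller ratio. LGALS3BP too was measured by 1 probe set only. Relative to the median of all genes past the filter, LGALS3BP was 0.64 higher on the log2 scale and LGALS1 4.64 higher.

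LGALS8 encodes galectin-8, which joins a pair of carbohydrate-binding domains by a linker and marks damaged endosomes for autophagy. Its 6 probe sets, which target different parts or variants of its transcripts, read between 16.6 and 123 in GFP control cells and between 7.36 and 147 in IRX1::GFP cells. The highest signal in the GFP control, 123, was that of a probe set that read 19.4 with IRX1::GFP. The highest with IRX1::GFP, 147, was that of another that read 70.6 in the GFP control. The IRX1::GFP signal was the smaller one on 5 probe sets and the larger one on 1. All 12 signals stayed under background, so these differences have no fold. The olfactory receptor probe sets give the size of such differences at background. Of 135, 89 had the larger signal with IRX1::GFP and 46 the smaller, and the 10th and 90th percentiles of their log2 ratios were -1.65 and 2.36. No change of LGALS8 was detectable at this signal. The antisense transcript LGALS8-AS1 read 91.1 and 171, also under background on both arrays.

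LGALS9 encodes galectin-9, likewise a lectin with a pair of binding domains. Its only probe set read 89.7 in GFP control cells and 137 in IRX1::GFP cells, with 100 and 108 of the 135 olfactory receptor probe sets below it. Neither signal was above background, and no difference was detectable. The name of this probe set ends in _s_at, the mark for probes that fit several transcripts, and LGALS9B and LGALS9C are close copies of LGALS9, so the transcript behind even a brighter signal would be uncertain. In all, 8 of the 11 member probe sets were not above background on both arrays. With background set by the 107 olfactory receptor probe sets of protein-coding genes, at 143 and 179, the count was again 8.

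Of 12 other galectin genes, 7 were analysed here and 1 passed the filter. This was LGALSL, a galectin-related gene whose product lacks the usual sugar binding. Its brighter probe set read 2214 and 2656, a log2 ratio of 0.26, and the dimmer 531 and 587, a log2 ratio of 0.14. Both were within 2-fold. The remaining 6 had no signal above background. LGALS4, a galectin of the gut lining, read 66.5 and 179, and CLC, the Charcot-Leyden crystal protein of eosinophils, 16.2 and 123. LGALS14, a galectin of the placenta, read 144 and 144, LGALS13, also of the placenta, 48.2 and 91.6, LGALS12 15.8 and 25.0, and LGALS2 23.1 and 11.3. With the background of protein-coding olfactory receptor genes, the IRX1::GFP signal of LGALS4 was just above it. Among the galectins analysed, only LGALS1, LGALS3 and LGALSL had both signals above background. Of these, LGALS1, for whose value the family was chosen, was the only one to differ by at least 2-fold.

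Of all genes past the filter, 10275 of 12193 were within 2-fold, and the lists of genes around galectins are read against this. Enzymes that build the glycans galectins bind were listed as 21 genes, of which 17 passed the filter. None was at least 2-fold higher and none lower (1 lower after median centring, C1GALT1), beside 10.4% and 5.34% of all genes, and the median log2 ratio was -0.01, beside 0.07. The largest difference was that of C1GALT1, which starts core-1 O-glycans, at 1484 and 776, a log2 ratio of -0.94. Its other 2 probe sets past the filter read 402 and 391, and 239 and 350, so the probe sets of C1GALT1 disagreed. C1GALT1C1 had a log2 ratio of -0.01 on its brightest probe set and of 1.44 on a dimmer one past the filter. B4GALT1 and B4GALT5, which add galactose, had log2 ratios of -0.69 each, with signals of 1078 and 670 for B4GALT1 and of 2331 and 1446 for B4GALT5. B3GNT5, which extends glycolipid chains, read 2925 and 1941, a log2 ratio of -0.59. MGAT5, which makes the branched N-glycans that galectin-3 prefers, read 1260 and 1109, and ST6GAL1, whose sialic acid blocks galectin-1 from binding, 357 and 286, both within 2-fold.

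Of 28 galectin-binding glycoproteins, 21 passed the filter, none was at least 2-fold higher and 1, NRP1, was lower by its measured ratio, beside 10.4% and 5.34% of all genes. The median log2 ratio was 0.10, beside 0.07 for all genes. NRP1, a surface receptor of semaphorins and VEGF that galectin-1 binds, read 348 in GFP control cells and 68.0 in IRX1::GFP cells. Since the latter was not above background, NRP1 was at least 1.78-fold lower. The call of NRP1 at 2-fold was lost when signals were raised to the background level. BSG, a surface glycoprotein of the immunoglobulin family, read 1820 and 3556, a log2 ratio of 0.97. LAMA5, a laminin chain of basement membranes, read 827 and 1604, a log2 ratio of 0.96, and PDPN, the mucin-like podoplanin, 214 and 400, a log2 ratio of 0.90. These 3 were within 2-fold, though the log2 ratio of BSG was 1.01 after quantile normalization and after loess. LAMP1, a lysosomal membrane glycoprotein, read 20502 and 21939, and ITGB1, the integrin beta 1 subunit, 10938 and 7711.

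Genes of the response to broken endosomes and lysosomes, on which galectins gather, numbered 25, with 24 analysed here and 22 past the filter. Of these 2, TFEB and ULK1, were at least 2-fold higher and none was lower, beside 10.4% and 5.34% of all genes. The median log2 ratio was -0.02. TFEB, the transcription factor of lysosomal genes, read 349 and 1267, a log2 ratio of 1.86, and its second probe set read 181 and 375, a log2 ratio of 1.06. ULK1, a kinase that starts autophagy, read 358 and 858, a log2 ratio of 1.26. ATG5, a factor of autophagosome growth, was 1.64-fold, 1.68-fold and 1.78-fold lower on its 3 probe sets, all within 2-fold. TSG101, of the membrane-repairing ESCRT machinery, read 7868 and 4848, a log2 ratio of -0.70. CALCOCO2, the autophagy receptor that galectin-8 recruits, read 3931 and 3873, while its second probe set past the filter had a log2 ratio of 1.14. TRIM16, a partner of galectin-3, read 938 and 1186.

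**Figure D3:**
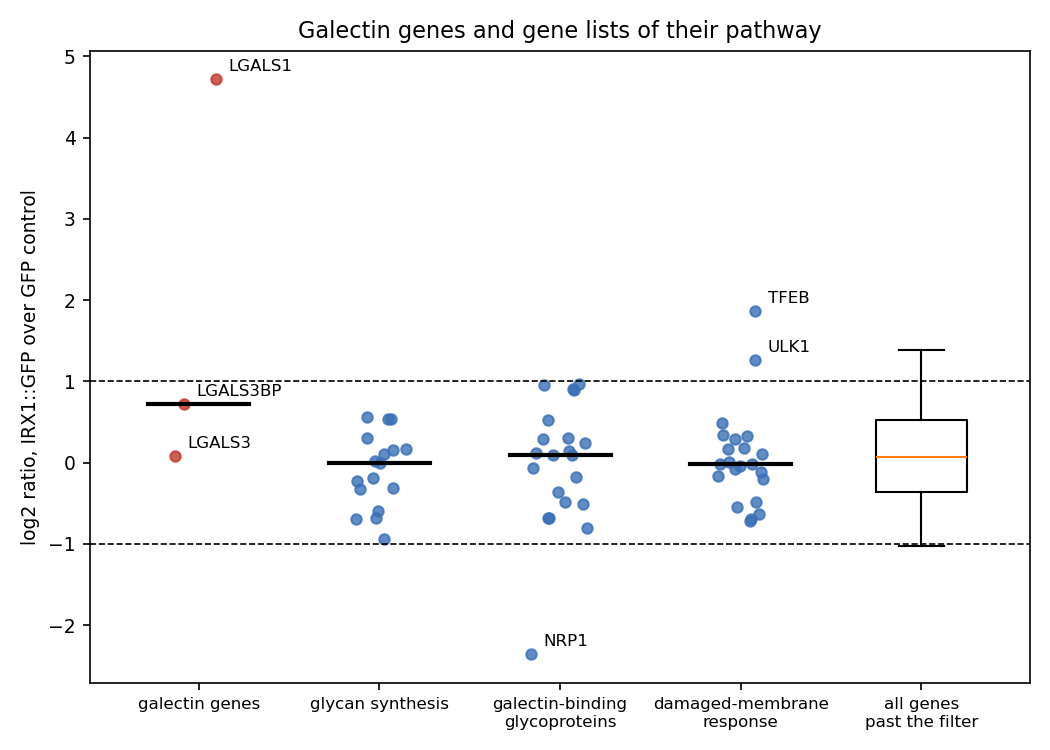
Points are log2 ratios (IRX1::GFP / GFP control) (y) of the genes past the filter in each list (x), 1 array per condition, with black bars at the medians, dashed lines at 2-fold, and for all genes a box of the quartiles with whiskers at the 5th and 95th percentiles. LGALS1 at 4.71, TFEB at 1.86 and ULK1 at 1.26 lie above the upper line, and NRP1 at -2.36 below the lower one, a point that uses an IRX1::GFP signal under background, while the glycan synthesis genes lie between the lines.

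The genes analysed near LGALS1 on chromosome 22 had smaller log2 ratios, as had 99.9% of all genes past the filter. PDXP, the gene directly before LGALS1, was not analysed here. In the gene order of RefSeq (GRCh38.p14), 4 of the 6 nearest protein-coding genes, 3 on each side, were analysed here, and none was at least 2-fold higher or lower, beside 10.4% and 5.34% of all genes past the filter. SH3BP1 read 166 and 278, GGA1 4895 and 5809, NOL12 2599 and 4060, and TRIOBP 1454 and 1805, between 1.19-fold and 1.67-fold higher. Around LGALS3 on chromosome 14, all 5 neighbours analysed were within 2-fold, with log2 ratios from -0.71 for SOCS4 to -0.04 for DLGAP5. Around LGALS3BP on chromosome 17, 2 of 5 neighbours were at least 2-fold higher by their measured ratios, beside the same 10.4% of all genes, too few genes to read a share from. ENGASE, an enzyme that releases N-glycans in the cytosol, read 959 and 2787 and was 2.91-fold higher. C1QTNF1 read 113 and 333 and was at least 2.26-fold higher. CANT1, next to LGALS3BP, read 4558 and 5570. The neighbours were looked up after the values of the members had been seen.

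**Figure D4:**
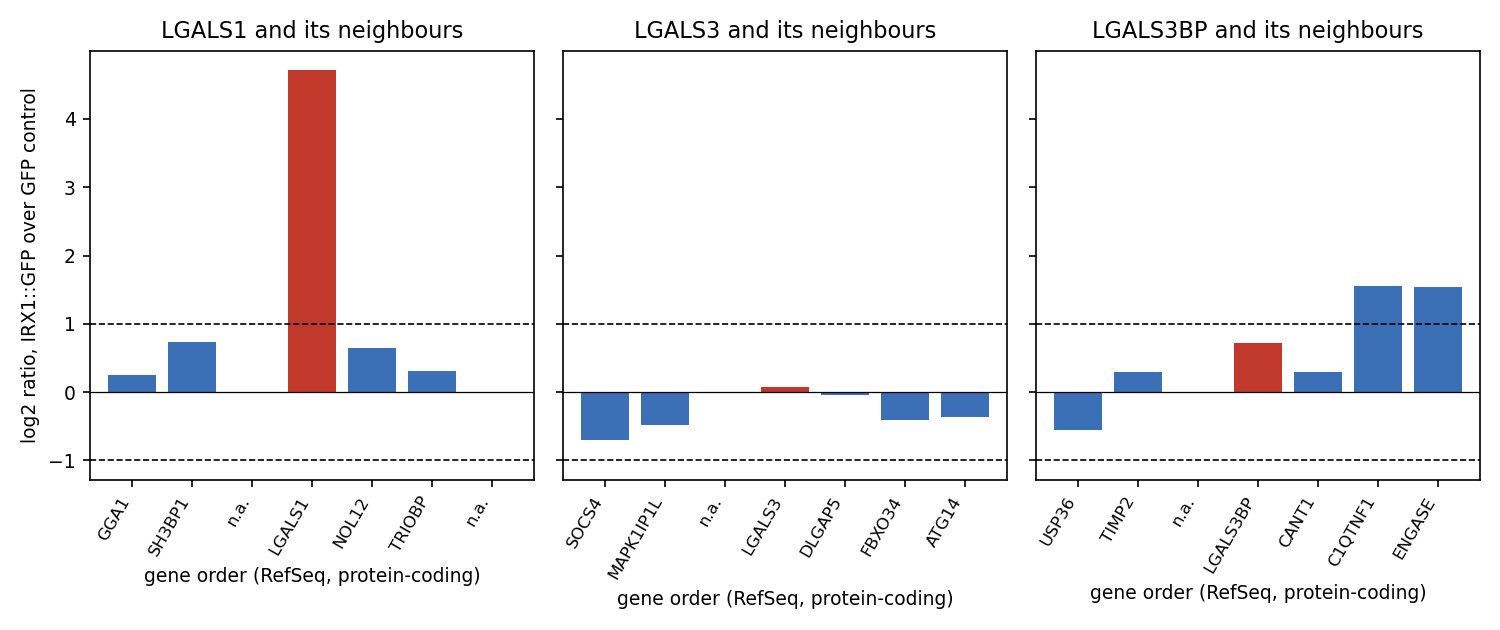
Bars are log2 ratios (IRX1::GFP / GFP control) (y) for LGALS1, LGALS3 and LGALS3BP (red) and the nearest protein-coding genes on each side in gene order (blue, x), with dashed lines at 2-fold and n.a. for genes not analysed here. LGALS1 reaches 4.71 while its 4 neighbours stay below 1, and the C1QTNF1 bar uses a GFP control signal under background.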

How the data were processed

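RNA from sorted HEK293T cells was hybridised to Affymetrix HG-U133 Plus 2.0 arrays, 1 per condition here, while the study gives more replicates. Whether each array is a single replicate or a pool is not stated. The values deposited by the authors are MAS5 intensities, not logged (MAS5 per the labels, its version and target value not given in the sources used here). MAS5 subtracts mismatch signals, so low values are unstable. Probe sets were named from the platform annotation. Of 54675, 41097 had 1 symbol, 1801 several (not named) and 11777 none. The last include 62 array controls. Current symbols came from the gene identifiers in RefSeq (GRCh38.p14), which held 41043 of the 41097.

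The log2 ratio of the 2 deposited intensities was taken for the probe set of each gene with the highest mean, where this mean reached the 50th percentile of probe sets that are not controls. No test was made with 1 array per condition. The members and lists were chosen with earlier results of these data known. Named are all members, all other galectins analysed here, up to 4 genes of each list with the largest changes, and the 3 genes closest to LGALS1. MGAT5, ST6GAL1, LAMP1, ITGB1, CALCOCO2, TRIM16, P4HB, ITGA3, GCNT2 and the neighbours were named outside this rule, after their values were seen. So were LAMP2, LAMB1, FN1, CD47, C1GALT1C1, SQSTM1 and ST3GAL1. The protein comparison that had been planned was not made, since protein sequences were not used here. The spread over LGALS8 probe sets was not set beside that of other genes, since none passed the filter. The steps were run on simulated signals with planted 4-fold changes and noise set below the scatter among probe sets. This checks the code and not the precision of these values. The 9 alternatives changed the scaling, filter, floor or probe set choice (loess span 0.3). Loess came from statsmodels 0.14.6, figures from matplotlib 3.10.9, and all else ran in Python 3.11.15 with pandas 2.3.3, numpy 2.4.6 and scipy 1.17.1.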

Additional observations from a re-analysis of the deposited data

How the results depend on the processing

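No paired analysis was possible because only 1 array stands for a condition, which also leaves none to omit. The log2 ratio of LGALS1 lay between 4.61 and 4.75 under all 9 alternatives. That of LGALS3BP lay between 0.58 and 0.71 under 8, and that of LGALS3 between -0.10 and 0.08 under 7. LGALS3BP and LGALS3 had no value with a filter at the 75th percentile, and LGALS3 none with only _at probe sets. Only median centring, quantile normalization and loess could move these 3 ratios. Each of these 3 genes had 1 probe set past the filter with both signals above background, so every other alternative gave the same value or none. The counts of all genes depend on the filter. Past 2-fold, no filter gave 3456 genes higher and 1983 lower, and a 75th-percentile filter 513 higher and 415 lower, since other numbers of genes are tested. Median centring, which subtracts 0.11, gave 1047 higher and 850 lower, beside 1267 and 651. In the 3 lists of ligands, enzymes and damage response, each count of higher or lower genes moved by at most 2. TFEB, ULK1 and NRP1 did not pass a filter at the 75th percentile, P4HB was past 2-fold as the mean over probe sets (1.08), CALCOCO2 with only _at probe sets (1.14), and ITGA3 and GCNT2, each with 1 signal not above background, with the filter on the olfactory receptor level or none. Background sets the limit for LGALS8, LGALS9 and 6 other galectins.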
